A study of Caenorhabditis elegans with 2 samples.

Results

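The mitochondrial ribosomal protein genes of Caenorhabditis elegans were examined for binding of the tagged zinc finger protein C16A3.4 in first-stage (L1) larvae. Members were the protein-coding genes whose symbol begins with mrpl- or mrps- in the Ensembl annotation of WBcel235 (the ce11 build), and 70 of 19973 protein-coding genes met this rule. They comprised 41 mrpl genes, named for the large subunit, and 29 mrps genes, named for the small subunit. A member was scored as bound when the summit of a peak fell in its promoter window, from 1000 bp before its annotated 5′ end to 200 bp after it.

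The series is a chromatin immunoprecipitation sequencing (ChIP-seq) experiment against eGFP-C16A3.4, a fusion of the worm protein with a green fluorescent protein tag, with 2 biological replicates in 1 group. Both replicates were L1 larvae of mixed sex, taken as whole animals, of strain OP345, which carries the unc-119(ed3) III mutation and the transgene wgIs345 bearing the tagged gene. The deposited lists held 30000 peaks and background regions for each replicate, 21096 for the pooled replicates, and the strongest of the pooled peaks, with signals of 48.4 or more, in a thresholded list. The peaks of all tissues are mixed in whole larvae, both replicates come from the same transgenic strain, and no larvae without the tag are among the samples used here. Neither the promoter that drives the transgene nor the read number of each library is stated in the labels.

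The mitochondrial ribosome translates the few proteins encoded by mitochondrial DNA, most of them subunits of the respiratory chain. Its RNAs come from the mitochondrial genome, whereas its proteins are encoded in the nucleus, made in the cytosol and imported. Many worm genes lie in operons, in which one promoter serves several genes in a row and the downstream transcripts are separated by trans-splicing, so the promoter of a gene can lie in front of a neighbour.

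A summit of the thresholded list lay in the promoter window of 30 of the 70 members, or 42.9% (Wilson 95% interval 31.9 to 54.5, counting error only). Over all protein-coding genes the share was 13.7%. By symbol, 18 of 41 mrpl genes had one (43.9%, interval 29.9 to 59.0), and 12 of 29 mrps genes did (41.4%, interval 25.5 to 59.3). The intervals of the subunits overlap over nearly their whole length.

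The DNA at the summits is shown for 9 bound members, with 101 bases centred on the summit, read 5′ to 3′ on the strand of the gene, from the RefSeq sequence of WBcel235. The first 7 are the members with the highest signal whose sequence can be printed here, and mrpl-37 and mrpl-45 are added for their repeated words. Capitals mark 5 words on either strand. The word ACGCGC reads GCGCGT on the other strand, the word CAAACACC reads GGTGTTTG, and the word GAGCGCAC reads GTGCGCTC. The words CGCGCG and also GCGCGC read the same on both strands. The mrps-24 line is also the summit of mrpl-1, which lies on the opposite strand.
mrps-7 (chrIV:14767849-14767949, minus strand): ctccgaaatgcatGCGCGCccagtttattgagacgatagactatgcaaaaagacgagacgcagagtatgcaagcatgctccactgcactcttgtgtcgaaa
mrpl-55 (chrIV:443816-443916, plus strand): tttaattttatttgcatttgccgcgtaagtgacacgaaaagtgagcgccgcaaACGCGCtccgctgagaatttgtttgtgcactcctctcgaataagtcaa
mrpl-49 (chrV:12728425-12728525, plus strand): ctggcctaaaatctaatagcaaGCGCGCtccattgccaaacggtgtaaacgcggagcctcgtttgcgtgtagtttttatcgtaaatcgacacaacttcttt
mrpl-28 (chrII:156082-156182, minus strand): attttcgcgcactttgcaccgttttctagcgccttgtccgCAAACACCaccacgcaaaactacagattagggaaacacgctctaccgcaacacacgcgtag
mrps-17 (chrIII:6431877-6431977, minus strand): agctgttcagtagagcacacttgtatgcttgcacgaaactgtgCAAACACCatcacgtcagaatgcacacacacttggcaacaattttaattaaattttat
mrps-24 (chrIV:7709846-7709946, plus strand): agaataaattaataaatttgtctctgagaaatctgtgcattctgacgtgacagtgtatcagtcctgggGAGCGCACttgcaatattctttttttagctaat
mrps-16 (chrII:5474113-5474213, plus strand): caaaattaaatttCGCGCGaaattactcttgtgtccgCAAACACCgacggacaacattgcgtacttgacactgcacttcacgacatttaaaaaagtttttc
mrpl-37 (chrII:13575646-13575746, minus strand): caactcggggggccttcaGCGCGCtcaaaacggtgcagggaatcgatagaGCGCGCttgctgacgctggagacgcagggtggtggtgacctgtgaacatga
mrpl-45 (chrIII:1202312-1202412, minus strand): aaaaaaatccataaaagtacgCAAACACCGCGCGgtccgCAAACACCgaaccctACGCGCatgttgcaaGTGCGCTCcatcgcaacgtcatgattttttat

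The words differ from member to member. GCGCGC stood at mrps-7 and mrpl-49 and was present at 2 places at mrpl-37, ACGCGC at mrpl-55, and CAAACACC at mrpl-28, mrps-17 and mrps-16, the last with CGCGCG as well. The mrpl-45 summit held CAAACACC at 2 places and ACGCGC besides, with CGCGCG in between and GAGCGCAC after them, with the first copy of CAAACACC sharing its last base with CGCGCG. The first 3 words were those most enriched at the other 3191 thresholded peaks over flanks 500 bp away, and CAAACACC and GAGCGCAC were picked from the members' own summits after these had been read, so their counts among members describe the choice. The 3 GC words overlap each other wherever guanine and cytosine alternate over a longer stretch.

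Within 50 bp of the summit, ACGCGC was present at 5 of the 29 member peaks (17.2%), against 14.8% of the other peaks and 2.17% of promoter windows of the same length (434 of 19973, centred at −227 bp from the 5′ end of each protein-coding gene, the median summit position of bound genes). GCGCGC was present at 3 member peaks (10.3%), against 8.56% of the other peaks and 1.34% of promoter windows, and CGCGCG at 2 (6.90%), against 6.33% and 1.00%. At least 1 of the 3 was present at 9 of 29 member peaks (31.0%), against 687 of 3191 other peaks (21.5%). None of the 3 was found in the 58 windows flanking the member peaks. In the flanks of the other peaks ACGCGC stood in 1.38%, GCGCGC in 0.830% and CGCGCG in 0.611%. The 58 windows are thus too few to tell the groups apart. Within 25 bp of the summit, ACGCGC was present at 6.90% of member peaks and 9.62% of the other peaks, so the order of the groups for this word turns with the width searched.

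CAAACACC was present at 6 of 29 member peaks (20.7%), those of mrpl-28, mrpl-45, mrps-15, mrps-16, mrps-17 and mrps-28, against 118 of 3191 other peaks (3.70%) and 102 promoter windows (0.511%). GAGCGCAC was present at 4 of 29 (13.8%), the shared peak of mrpl-1 and mrps-24 and those of mrpl-36, mrpl-45 and mrpl-47, against 87 other peaks (2.73%) and 46 promoter windows (0.230%). Neither was found in the 58 flanks of member peaks, and in the flanks of the other peaks they stood in only 0.329% and 0.157%. Both words were picked from the members' own summits, so their member shares describe that choice. A match is a run of letters and was not tested as a binding site.

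Signal is the authors' strength value for each peak, on a scale that their labels do not define. Members were set beside other genes within a list only. Replicate signals come from separate lists with no common scale stated. Replicate 2 was the higher at 80.9% of all matched thresholded peaks, so a higher replicate 2 value is common in the list. The 30 bound members had signals from 49.3 to 291 with a median of 122 (quartiles 65.4 and 151), against a median of 98.0 (quartiles 68.9 and 153) over the 2728 protein-coding genes with a summit. The middle of the distribution was therefore close to that of bound genes in general. Signals above 98.0 were found for 17 of the 30 members, and 6 lay among the 322 strongest peaks of the list, which 15.2% of all bound genes reached. The median was 127 for the mrpl genes and 87.5 for the mrps genes, and the ranges overlap.

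**Figure D1:**
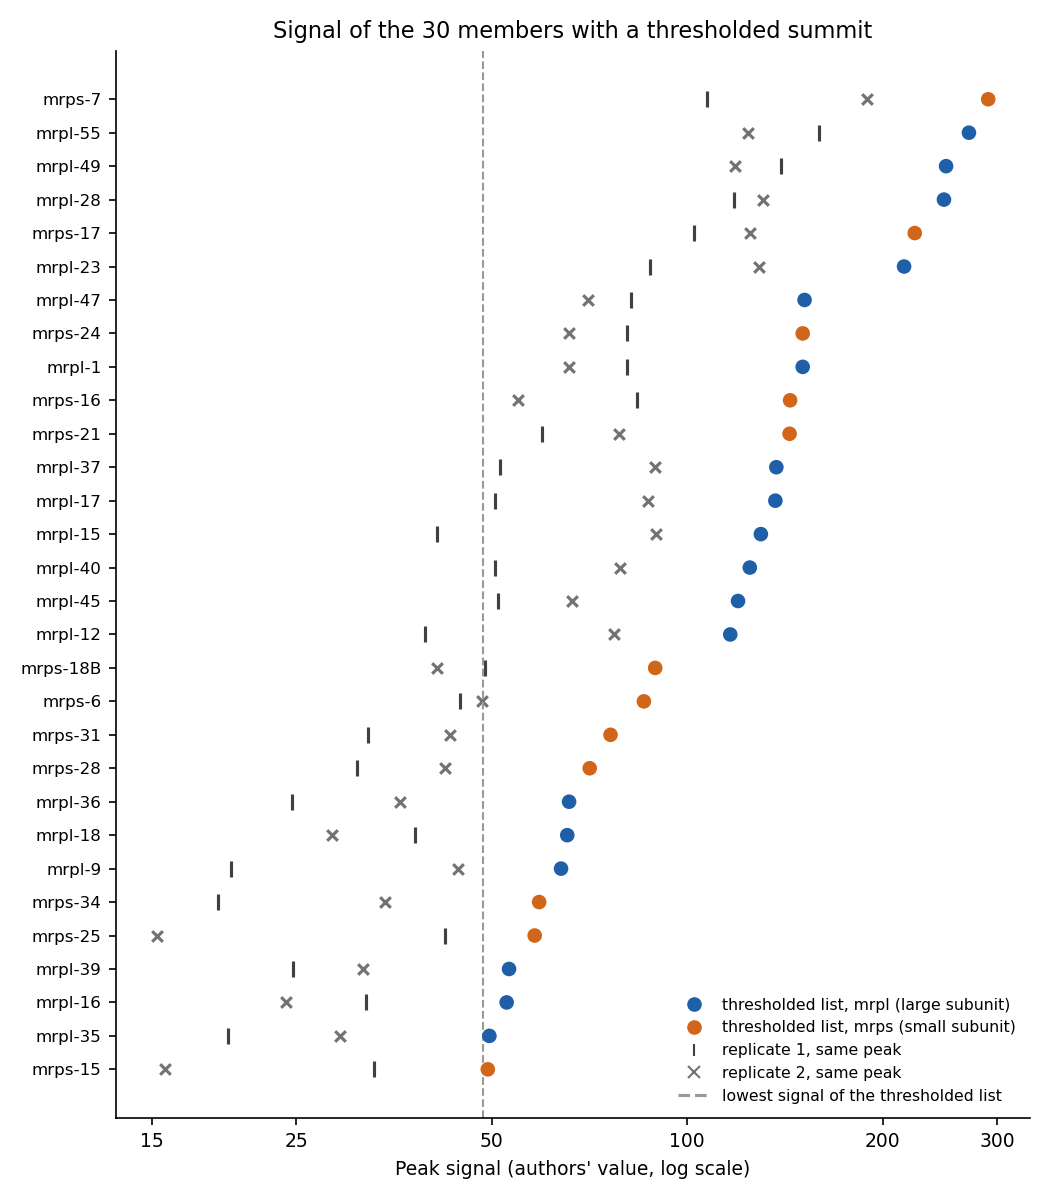
Signal of the best thresholded peak of each of the 30 bound members, with the signals of the nearest replicate 1 and replicate 2 peaks, on a log axis. The thresholded signals run from 49.3 to 291, and the 2 replicates lie below them at every member.

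Among small-subunit proteins the highest signal was at mrps-7, uS7m in RefSeq (u, b and m mark families that are universal, bacterial or mitochondrial). Its bacterial relative organises the head of the small subunit. The peak had a signal of 291 in the thresholded list, rank 95, with 107 in replicate 1 and 189 in replicate 2, and a summit at −169 bp. Its window is shared with Y57G11C.3 on the opposite strand. The uS17m gene mrps-17, whose bacterial relative binds the small-subunit RNA early in assembly, had 224 (102 in replicate 1 and 125 in replicate 2) at −129 bp. The windows of popl-1 and txdc-9 hold the same summit.

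The gene mrps-24 encodes uS3m, relative of the protein at the messenger RNA entry of the bacterial small subunit, and shares its peak with mrpl-1, the L1 protein, which in bacteria forms a movable stalk near the tRNA exit. The shared peak had a signal of 151, with 80.7 in replicate 1 and 65.7 in replicate 2, and its summit lay at −149 bp for mrps-24 and at −195 bp for mrpl-1, with emc-6 also in range. The bS16m gene mrps-16, a small-subunit assembly protein in bacteria, had 144 (83.7 in replicate 1 and 54.9 in replicate 2) at −210 bp with no other gene in range. Here replicate 1 was the higher, unlike at mrps-7 and mrps-17.

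The summit scored for mrps-21 had 144 (59.7 in replicate 1 and 78.5 in replicate 2), but it lay at −980 bp. It also falls in the windows of F29B9.11 and jmjd-1.2. The matched replicate 1 summit was 73 bp away and outside the mrps-21 window, whose only replicate 1 summit had 10.3. The gene mrps-18B had 89.2 (48.7 in replicate 1 and 41.2 in replicate 2), across from prp-9. The bS6m gene mrps-6 had 85.7 (44.7 in replicate 1 and 48.2 in replicate 2), across from the proteasome subunit gene rpn-8. These signals lie on either side of the median of all bound genes.

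The lower mrps signals were close to each other. The mitochondria-specific mS31 gene mrps-31 had 76.2 (32.3 in replicate 1 and 43.0 in replicate 2) and shared its summit with no other gene. The gene mrps-28 had 70.8 (31.0 in replicate 1 and 42.3 in replicate 2), and mrps-34 had 59.1 (18.9 in replicate 1 and 34.2 in replicate 2). At these 3 genes replicate 2 was the higher. The mS25 gene mrps-25 had 58.2, with 42.3 in replicate 1 and 15.3 in replicate 2, the lowest ratio of replicate 2 to replicate 1 among bound members. The uS15m gene mrps-15, whose bacterial relative binds the small-subunit RNA early in assembly, had 49.3 (32.9 in replicate 1 and 15.7 in replicate 2), the lowest signal of all bound members.

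Among large-subunit proteins, mrpl-55 had the highest signal, 271 (160 in replicate 1 and 124 in replicate 2) at −119 bp, with no other gene in range. The mitochondria-specific mL49 gene mrpl-49 had 250.3 (140 in replicate 1 and 118 in replicate 2) at −156 bp, between it and rpl-28, a cytosolic large-subunit protein gene on the opposite strand. The bL28m gene mrpl-28 had 248 (118 in replicate 1 and 131 in replicate 2) at −123 bp and stood alone. The 3 peaks stood at ranks 114, 152 and 158 of the thresholded list.

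A further pair of large-subunit genes of the bacterial families encode proteins that sit side by side at the exit of the peptide tunnel. The uL23m gene mrpl-23 had 216 (87.5 in replicate 1 and 129 in replicate 2). Its summit lay at −969 bp inside an intron of fars-1, the gene before it in the same run. Exons of a non-coding RNA gene and a pseudogene also hold the summit, and the small nucleolar RNA gene T08B2.13 lay 30 bp away. The uL29m gene mrpl-47 had 152 (81.9 in replicate 1 and 70.3 in replicate 2) with the summit at −2 bp. The positions differ by most of the window, and only the mrpl-47 summit adjoins its own gene.

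The remaining bound mrpl genes ranged from 49.6 to 137. The mitochondria-specific mL37 gene mrpl-37 had 137 (51.5 in replicate 1 and 89.2 in replicate 2) at −628 bp, nearer to lin-38. The bL17m gene mrpl-17 had 137 (50.6 in replicate 1 and 87.1 in replicate 2), across from the RNA helicase gene vbh-1. The uL15m gene mrpl-15 had 130 (41.2 in replicate 1 and 89.6 in replicate 2) at −601 bp with no other gene in range. At all 3, replicate 2 was the higher, as it was at 80.9% of all matched thresholded peaks.

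The mL40 gene mrpl-40 had 125 (50.6 in replicate 1 and 78.7 in replicate 2). The mL45 gene mrpl-45, whose mammalian relative holds the ribosome at the inner membrane, had 120 (51.1 in replicate 1 and 66.4 in replicate 2). The gene mrpl-12, named for the stalk protein that recruits translation factors in bacteria, had 116 (39.4 in replicate 1 and 77.0 in replicate 2) at −526 bp. No bound mrpl gene lay between this value and 65.8.

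Below that gap, mrpl-36 had 65.8 (24.6 in replicate 1 and 36.1 in replicate 2), and the uL18m gene mrpl-18 had 65.3 (38.1 in replicate 1 and 28.4 in replicate 2). The bL9m gene mrpl-9 had 63.9 (19.8 in replicate 1 and 44.4 in replicate 2), across from kin-3, a casein kinase II subunit gene. At mrpl-9 the ratio of replicate 2 to replicate 1 was the highest among bound members, 2.24. The gene mrpl-39 had 53.2 (24.7 in replicate 1 and 31.6 in replicate 2), the uL16m gene mrpl-16 had 52.7 (32.1 in replicate 1 and 24.1 in replicate 2), and the bL35m gene mrpl-35 had 49.6 (19.6 in replicate 1 and 29.2 in replicate 2). These last 3 lay close to the threshold of the list.

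Grouped by RefSeq family labels such as uS7m or mL49, 15 of 30 members of bacterial or universal families were bound (50%, interval 33.2 to 66.8). The counts were 6 of 19 for mitochondria-specific ones (31.6%, interval 15.4 to 54.0) and 9 of 21 for those without such a label (42.9%, interval 24.5 to 63.5). The last group holds older names, such as L1 for mrpl-1, and names of domains, uL2 for mrpl-2 and uS10 for mrpl-48. The intervals overlap. Median signals were 137, 122 and 89.2 in that order. The worm symbols do not always follow the human numbering: RefSeq names mrpl-34 mL43, and mrps-18C as the large-subunit protein uL3m.

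Bound members were found on 5 of the 6 nuclear chromosomes, and no member lies on the X. The share was 7 of 15 on I, 4 of 12 on II, 10 of 22 on III, 6 of 11 on IV and 3 of 10 on V. Over all protein-coding genes it was 19.6%, 13.6%, 21.1%, 12.1% and 9.09% on these chromosomes, so the member share was higher on each of the 5.

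Summits of bound members lay close to the 5′ end. The median position was −172 bp (quartiles −284 and −130), against −227 bp (quartiles −396.25 and −129) over all bound protein-coding genes. Between −250 and −100 bp lay 19 of 30 member summits, against 36.5% of all. None of the 30 lay downstream of the 5′ end, where 4.07% of all did. Beyond −500 bp lay 5 of 30 (those of mrps-21, mrpl-23, mrpl-37, mrpl-15 and mrpl-12), a share close to the 17.9% of all.

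**Figure D2:**
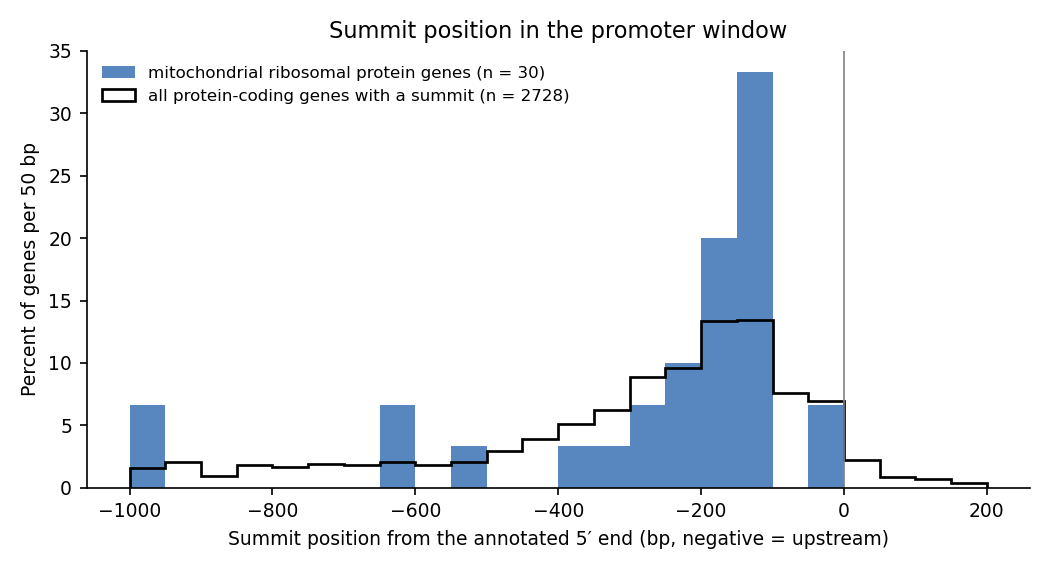
Position of the summit relative to the annotated 5′ end of the gene, in bp, for the 30 bound members and for all 2728 bound protein-coding genes, as shares of each group. The members cluster between −250 and −100 bp, with a median of −172 bp against −227 bp over all.

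Of the 30 member summits, 22 lay in the window of another protein-coding gene too, or 73.3%, against 55.8% of all bound protein-coding genes. The other 8 stood in no other window (mrpl-55, mrpl-28, mrpl-23, mrpl-47, mrps-16, mrpl-15, mrps-31 and mrpl-36). The nearest 5′ end of any protein-coding gene was the member's own for 19 of the 30, a count made for members only. A summit between divergent genes cannot be assigned to one of them from these lists. Summits inside the body of another gene were found for 2 members, mrpl-23 (in fars-1) and mrpl-40 (in an exon of F54C4.4). This too was counted for members only.

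Both replicates had a summit within 100 bp of the thresholded summit for all 30 bound members, against 93% of all thresholded peaks. This was a match to the full replicate lists, which hold background regions as well. The thresholded list is labelled as passing an IDR (irreproducible discovery rate) threshold, which rests on agreement between replicates. A match in both is thus partly fixed by how the list was made. Replicate 1 signals ran from 18.9 to 160 with a median of 49.7, and replicate 2 signals from 15.3 to 189 with a median of 65.7. Replicate 2 was the higher at 19 of 30, and the median ratio of replicate 2 to replicate 1 was 1.29 (0.361 to 2.24), against 1.46 over all matched peaks, where replicate 2 was the higher in 80.9%. Over the 29 distinct member peaks Spearman's rho between replicates was 0.788 and Pearson's r of log2 signals 0.746, given as descriptions of peaks within the same libraries.

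**Figure D3:**
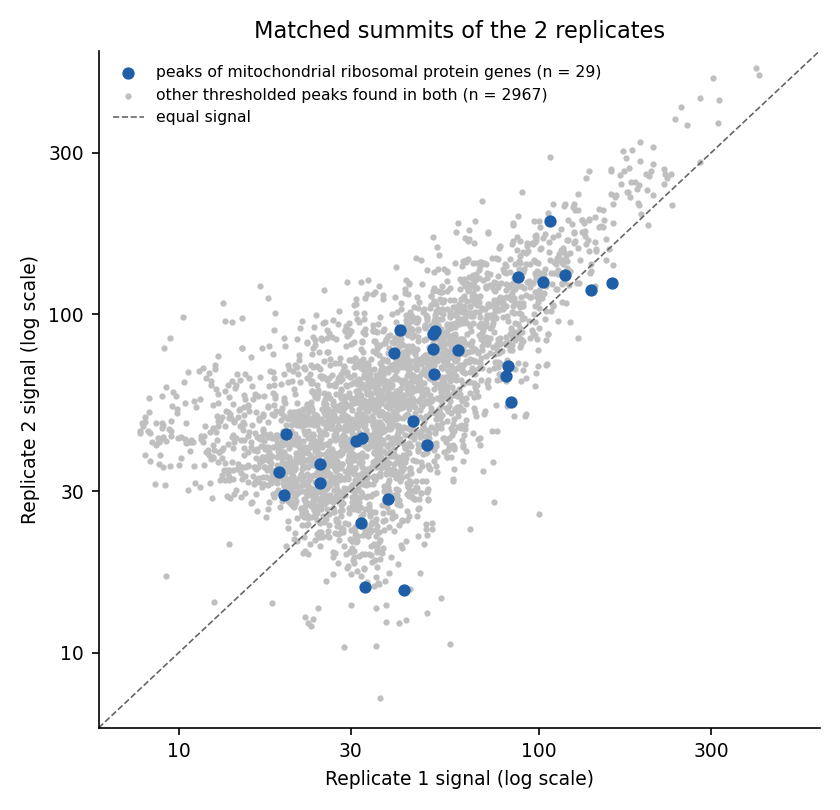
Replicate 2 signal against replicate 1 signal of the peak nearest to each thresholded summit, on log axes, for the member peaks and for all matched thresholded peaks. Member peaks lie along the same band as the others, with replicate 2 higher at 19 of 30 members.

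Among the 40 members with no thresholded summit, 20 had one in the pooled list, 4 in a replicate list only and 16 in none of the lists. Counted with the thresholded ones, a pooled summit was present at 50 of 70 members, against 36.5% of all protein-coding genes, a replicate 1 summit at 48, against 43.3%, and a replicate 2 summit at 50, against 42.9%. The pooled signals of the 20 ran from 14.3 to 47.0 with a median of 31.8, and 13 of them had a summit of both replicates in the window.

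The members just inside the threshold were mrps-15 with 49.3, mrpl-35 with 49.6 and mrpl-16 with 52.7. Just outside were mrpl-19 with 47.0 (33.3 in replicate 1 and 15.7 in replicate 2), mrpl-2 with 47.0 (19.9 in replicate 1 and 20.7 in replicate 2) and mrps-9 with 46.9 (29.4 in replicate 1 and 20.9 in replicate 2). The weakest signal in the thresholded list was 48.4, so these 6 members differ little in signal. The uL2 protein encoded by mrpl-2 lies near the catalytic centre of the ribosome.

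Other members below the threshold included mrpl-20 with a pooled signal of 44.5, mrpl-34 with 42.6, mrps-35 with 40.5, mrps-10 with 38, mrps-18A with 36.8, mrpl-44 with 35.5 and mrps-12 with 35.0. The rest ran down to mrpl-30 with 14.3, with mrps-23, mrps-18C, mrpl-11, mrpl-41, mrpl-38, mrps-33, mrps-14, mrpl-13 and mrpl-32 in between. The uS12 protein, mrps-12, lies at the decoding centre, and uL3m, encoded by mrps-18C, near the catalytic centre.

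A replicate summit only was found at mrpl-22, mrpl-48, mrpl-54 and mrps-18.C. No summit in any list was found at mrpl-4, mrpl-10, mrpl-21, mrpl-24, mrpl-42, mrpl-46, mrpl-50, mrpl-51, mrpl-53, mrps-2, mrps-5, mrps-11, mrps-22, mrps-26, mrps-27 or mrps-30. The gene mrps-5 encodes uS5m, a small-subunit protein whose knockdown is known to lengthen worm lifespan and to induce the mitochondrial stress response. It lies 103 bp after sel-1 on the same strand, and sel-1 had no thresholded summit.

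Of the 30 bound members, 27 stood first in a row of genes or alone, as did 2334 of all 2728 bound protein-coding genes. A run was taken as consecutive protein-coding genes on the same strand with gaps of at most 500 bp, without an operon annotation. Members that were first in a run or single were bound in 27 of 40 cases (67.5%, interval 52.0 to 79.9), against 14.8% of all first or single genes. Members downstream in a run were bound in 3 of 30 cases (10%, interval 3.46 to 25.6), against 9.46% of all downstream genes. The member share thus exceeded that of all genes at first and single genes, and was close to it at downstream genes.

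First genes of a run of 2 or more were bound in 15 of 18 cases (83.3%), against 26.3%, and single members in 12 of 22 (54.5%), against 12.1%. Downstream genes made up 42.9% of the members and 20.8% of all protein-coding genes. The 3 bound downstream members were mrpl-23, mrpl-1 and mrps-21, whose summits lie in an intron of the gene before, in a window shared with emc-6 and mrps-24, and near the 5′ end of F29B9.11.

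**Figure D4:**
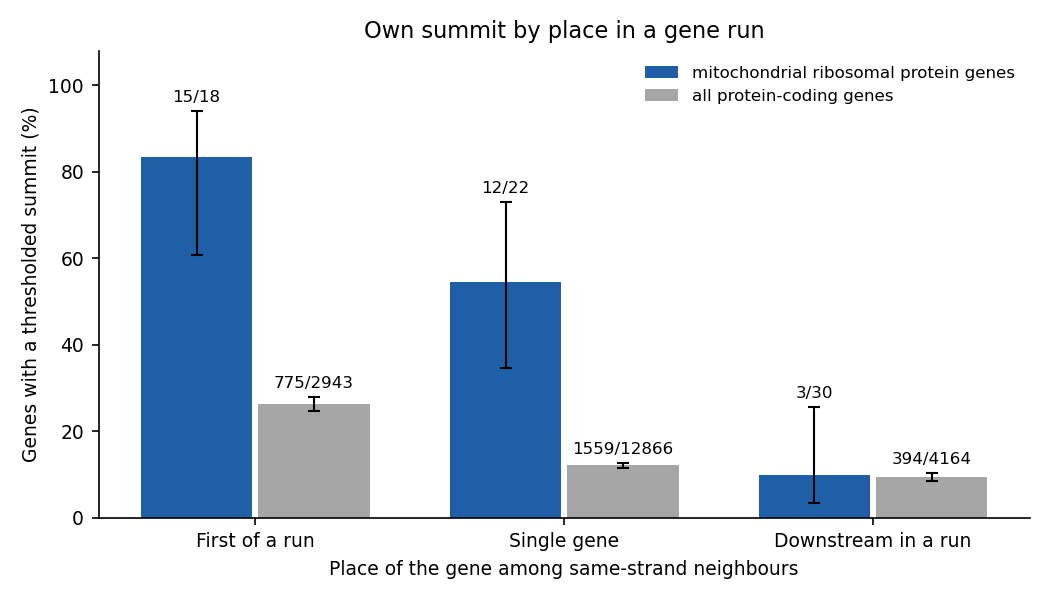
Share of genes with a thresholded summit, in percent, by place in a run of same-strand genes, for the members and for all protein-coding genes, with Wilson 95% intervals. Members first in a run reach 83.3% and single members 54.5%, while downstream members lie at 10%, near the 9.46% of all downstream genes.

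Of the 27 downstream members without a summit of their own, 18 lay in a run whose first gene had one (66.7%), against 27.8% of such genes overall. The 18 fell in 17 runs, since mrps-2 and mrpl-4 share one. First-gene signals ran from 59.2 to 401 with a median of 144. Adding these to the 30 with their own summit gives 48 of 70 members (68.6%), against 18.9% of all protein-coding genes. A summit at the first gene was not tested as acting on the downstream ones.

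The highest first-gene signals were at genes of other functions. The proteasome subunit gene rpn-3, ahead of mrpl-32, had 401 (188 in replicate 1 and 214 in replicate 2). The claspin relative clsp-1, ahead of mrpl-54, had 309.8, with a gap of 373 bp to the member. The ATP synthase subunit gene atp-2, ahead of mrps-26, had 273 (138 in replicate 1 and 132 in replicate 2), and here both genes serve the mitochondrion.

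The acetyltransferase subunit gene natc-1 had 258 (122 in replicate 1 and 135 in replicate 2) and is followed by mrps-2 and then mrpl-4, the genes of uS2m and uL4m. Neither of these had a summit in any list. Lower first-gene signals were 176 at vps-37 (mrpl-48), 170.3 at eif-3.E (mrps-30), 166 at misc-1 (mrpl-41), 156 at T14B4.3 (mrps-18.C), 131 at nrde-2 (mrps-14), 130 at W04D2.4 (mrps-11), 116 at cct-2 (mrpl-50) and 110.4 at F21D5.7 (mrps-33). The last 5 were 94.7 at uev-1 (mrps-27), 65.6 at W04B5.5 (mrpl-30), 61.9 at rpb-6 (mrps-22), 60.1 at tag-124 (mrpl-53) and 59.2 at F13G3.7 (mrpl-13). First-gene summits lay from 6 bp after the 5′ end at tag-124 to −921 bp at nrde-2, with misc-1 at −803 bp. Some lay in windows of other genes too, such as the nrde-2 summit at −432 bp of atad-3. Sharing was not counted for the first genes. In 14 of the 18 the gap between the member and the gene before it was 0 to 150 bp. Among all 30 downstream members 20 had such a gap, and it was counted for members only.

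**Figure D5:**
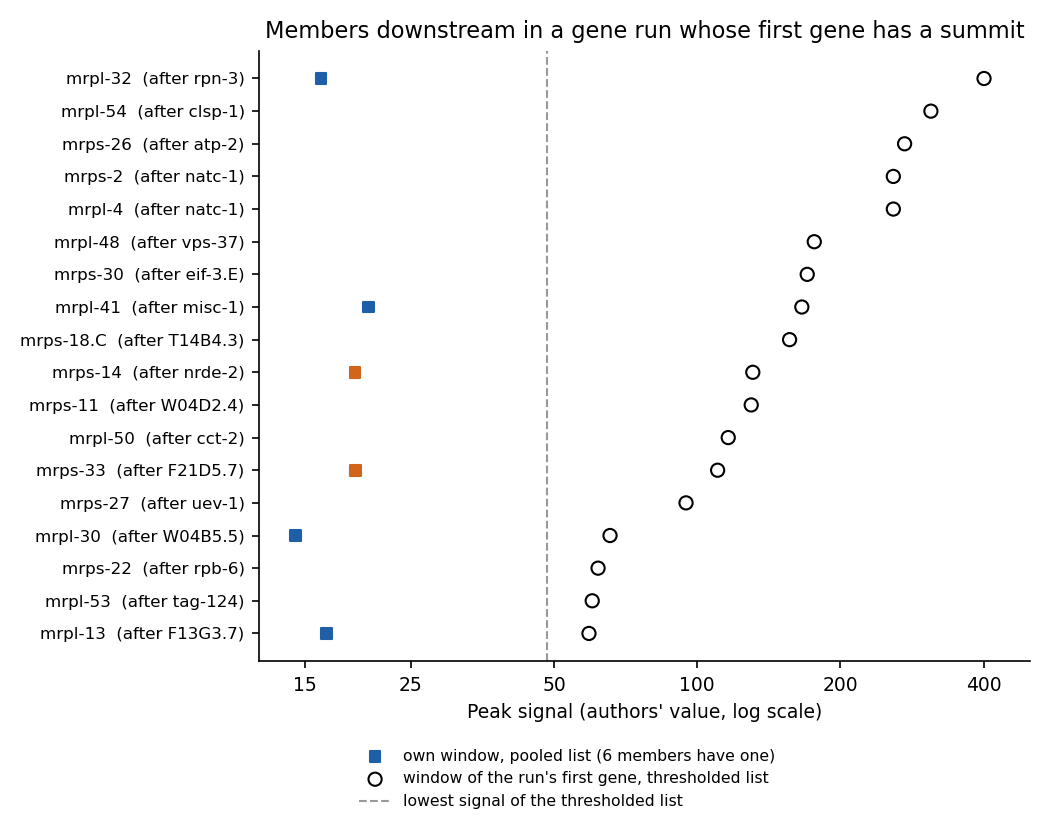
Signal of the thresholded peak at the first gene of the run, for the 18 downstream members with no summit of their own, on a log axis. The first-gene signals run from 59.2 at F13G3.7 to 401 at rpn-3.

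The strand of the upstream neighbour divided the members likewise. With the nearest upstream gene on the opposite strand, 25 of 35 members were bound (71.4%, interval 54.9 to 83.7), against 20.5% of all such genes. With it on the same strand, 5 of 35 were (14.3%, interval 6.26 to 29.4), against 7.82%. Runs and neighbour strand overlap as descriptions, since a gene downstream in a run has its neighbour on the same strand in nearly every case.

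After summits of their own and of first genes were counted, 22 members had neither. Of these, 13 were first or single, among them mrpl-10, mrpl-11, mrpl-20, mrpl-46, mrpl-51 and mrps-10, and 9 were downstream, among them mrpl-2, mrpl-19, mrpl-21, mrps-5, mrps-9 and mrps-12. A pooled summit was present at 14 of the 22, and 7 had none in any list (mrpl-10, mrpl-21, mrpl-24, mrpl-42, mrpl-46, mrpl-51 and mrps-5).

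Other nuclear genes of mitochondrial gene expression and protein handling were taken from 5 hand-written lists, of which 61 of 70 symbols matched the annotation. A thresholded summit was present at 25 of the 61 (41.0%), against 13.7% of all protein-coding genes, with a median signal of 105, and absent from 36. Chaperones, proteases and stress response genes had 8 of 11, including the chaperonin gene hsp-60 with 297, the prohibitin genes phb-1 with 241 and phb-2 with 141, and atfs-1, the transcription factor of the mitochondrial stress response, with 54.0. The protease gene clpp-1 and dve-1 and haf-1 had none. Protein import had 9 of 21, including the receptor gene tomm-20 with 260.3 and the import motor chaperone gene hsp-6 with 176.

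The list of mitochondrial translation factors had 3 of 7, or 3 of 6 without dap-3, a ribosomal protein gene that it also holds. These were tufm-2 with 93.4, tufm-1 with 81.2 and gfm-1 with 60.7, elongation factors all. Mitochondrial tRNA synthetases had 3 of 12, with ears-2 at 233, vars-1 at 111 and sars-2 at 68.5. Maintenance of mitochondrial DNA and RNA had 2 of 10, nearest of the 5 lists to the share over all genes, with mma-1 at 109 and mtss-1, the single-stranded DNA binding protein gene, at 71.4. The genes of the cytosolic ribosomal proteins (rpl-, rps- and rla-) had 71 of 81 (87.7%), with a median signal of 218 (quartiles 146 and 300.4) and a median position of −295 bp, and 5 mitochondrial members had a signal above 218.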

How the data were processed

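The deposited peak lists (narrowPeak, ce11) give, for each peak, the authors' signal value, a −log10 q value and the summit offset, per the file layout; the signal has no stated unit, so its depth and scale are unknown and the counts of genes carry counting error only. Aligner and peak caller: not given in the sources used here; a control experiment is named in the labels but not analysed here, and ce10 lists were not used. The −log10 q values deposited by the authors were not used to rank peaks. Genes were protein-coding genes of Ensembl release 115 (WBcel235), and their families come from the RefSeq annotation. Summits were assigned to every window of 1000 bp upstream to 200 bp downstream that held them, and a gene took its strongest. The 3 leading words were chosen among words of 6 bases in at least 5% of the summit windows of the other peaks. Analyses used Python 3.11.15, numpy 2.4.6, pandas 2.3.3, scipy 1.17.1 and matplotlib 3.10.9, and the assignment was tested on simulated summits. All members were named by rule: bound members with their signals, the 10 strongest in full, mrps-5, the members on either side of the threshold and those in no list. The members and lists were chosen with earlier results of these data known, so no test of a list was made and no p-value is given. With 1 group and no conditions, nothing was compared between groups of samples.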

Additional observations from a re-analysis of the deposited data

How the results depend on the processing

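The number of bound members was 25 with 500 bp to each side (against 11.6% of all genes), 32 with 2000 bp upstream (17.4%), 31 with whole peak regions (14.4%) and 41 with a list of the strongest pooled peaks 2 times as long (20.2%). It was 26 to 28 when the strongest peaks of one replicate list, not its full length, stood in for the thresholded list, against 13.1% to 13.3% of all genes. With the stronger 50% of the thresholded peaks it fell to 19 of 70, with 7 mrps genes, against 8.15% of all genes. With summits in no other gene's window it fell to 8 of 70, against 6.04%. That last excess over all genes was smaller than with the main setting. The median position was −156 bp with 500 bp to each side, against −174 bp over all bound genes, and −188.5 bp with 2000 bp upstream, against −308 bp, so the gap between them changes with the window. It was −195 bp with the stronger 50% of peaks and −161 bp with the list 2 times as long, both against −229 bp, and −174 to −163 bp on a single replicate, against −229.5 to −230.5 bp. ACGCGC within 25 bp of the summit was present at 6.90% of member peaks, against 9.62% of other peaks, and within 100 bp at 17.2%, against 17.9%. Runs with gaps of 200 bp or 1000 bp gave 15 and 20 downstream members with a bound first gene. With each replicate list reduced to the length of the thresholded list, 23 members were matched in both, against 67.7% of all thresholded peaks. The causes were not tested. No paired analysis was possible because there is 1 group.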

Other observations

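RefSeq names R02F2.9 as mrpl-58, a symbol that the Ensembl annotation does not use, so it is not among the 70 members. It is second in its run, after osg-1, and had a thresholded summit with a signal of 76.1 (34.6 in replicate 1 and 42.1 in replicate 2). The gene dap-3, known in other animals as a small-subunit protein of the mitochondrial ribosome, had no thresholded or pooled summit and a signal of 8.0 in replicate 1. It lies in the run that begins with rpb-6, just before mrps-22.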
